A study of Mus musculus with 96 samples.

Results

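Fmo1, Fmo2, Fmo4 and Fmo5, 4 genes for flavin-containing monooxygenases, were read in RNA-seq libraries of mouse liver, skeletal muscle and cerebral cortex. They were chosen by their measured read counts, scaled to 1000000 reads per library (CPM), in the 3 tissues under 2 diets, in the male and the female mice apart, and are 4 of the 56748 genes of the count table. Because the CPM under each diet and in each tissue chose the members, those values are a description of them, with no test. The same holds for the difference between the sexes in the response to diet, which is built from the diet values of each sex. It holds as well for the difference between female and male AL mice, since the choice read the AL levels of each sex. Tests are given for other genes, those of 4 lists around the enzymes' chemistry and the markers of cell types.

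Male C57BL/6 mice were either fed ad libitum (AL, mice 1 to 8) or fasted each day from 16:00 to 8:00 (IF, mice 9 to 16), starting at 6 weeks of age, for 4 months. They were killed between 7:00 and 12:00, the IF mice at the end of a fast, so the regimen and the time since the last meal cannot be told apart, and the hour for each mouse is not in the labels. Female mice carry the same labels, AL for mice 25 to 32 and IF for mice 33 to 40, and their strain, age and hours of fasting are not described. The same mouse gave all 3 tissues, the AL and IF mice are different animals, and whether the male and the female mice were raised, killed and sequenced together is not given. Poly-A libraries from 8 mice per group were sequenced, and 95 of the 96 libraries were used, with 26097314 to 49838004 reads counted on genes in each.

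The remaining library went against its label. The cortex library labelled as male AL mouse 1 held Xist, the RNA of the inactive X chromosome, at 213 CPM, and no count of the Y-linked gene Ddx3y. The other male libraries, with liver and muscle of mouse 1 among them, had at most 0.612 CPM of Xist and at least 25.1 CPM of Ddx3y. Xist in female cortex lay between 185 and 337 CPM. The library that went against its label was 1 of 96, and it was left out, so that male AL cortex holds 7 mice.

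Flavin-containing monooxygenases are membrane enzymes of the endoplasmic reticulum that use FAD, NADPH and oxygen to add an oxygen atom to soft nucleophiles, mostly the nitrogen or sulfur of drugs, toxins and dietary compounds. Fmo1 also oxidises hypotaurine to taurine, Fmo2 is best known from lung, Fmo5 favours Baeyer-Villiger reactions on carbonyl compounds, and Fmo4 is the least studied of them.

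The labels of the tissues were checked against marker genes. The summed CPM of 5 hepatocyte genes (Alb, Apoa1, Cps1, Ttr and Serpina1a) averaged 58914 in male AL liver and 66276 in female AL liver, against 0.689 in male AL muscle. The sum of 5 muscle fibre genes (Ckm, Acta1, Mylpf, Tnnt3 and Myh4) averaged 133258 in male AL muscle and 1.74 in male AL liver. The sum of 5 neuron genes (Snap25, Syt1, Slc17a7, Gad1 and Rbfox3) averaged 6070 in male AL cortex and 0.732 in male AL muscle. Each tissue thus held the markers of its label. In the cortex, Ttr, which is also made by the choroid plexus, carried nearly all of the hepatocyte sum, which ranged from 3.96 to 4271 CPM between libraries of both sexes.

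Within each sex and diet, liver held the highest mean level of all 4 members. Male liver under IF held more Fmo2, Fmo5 and Fmo1 RNA than under AL, by ratios of the means of 6.998, 1.94 and 1.58, while in female liver the ratios lay between 0.927 for Fmo4 and 1.20 for Fmo2. In AL mice, liver of females held more Fmo1, Fmo2 and Fmo4 and less Fmo5 than liver of males. The level of Fmo2 in IF males came close to that in AL females. In these tissue samples, fewer cells of a type and less RNA per cell cannot be told apart.

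Fmo2 (ENSMUSG00000040170) ranged from 3.79 to 10.3 CPM with a median of 6.37 in the livers of AL males, and from 23.9 to 67.1 CPM with a median of 48.0 in IF males. The means were 6.71 ± 2.13 CPM (SD, n = 8) and 46.9 ± 12.2 CPM (SD, n = 8), a log2 fold change of 2.71 ± 0.17 (SE). Every IF male lay above every AL male. In AL females Fmo2 ranged from 40.6 to 66.7 CPM with a median of 47.1, and in IF females from 40.1 to 103 CPM with a median of 57.7. The female groups overlapped, with IF mouse 37 far above the other IF females at 102.6 CPM, and the log2 fold change was 0.30 ± 0.16 (SE), or 0.17 without that mouse.

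Fmo5 (ENSMUSG00000028088) was the member with the highest level in male liver. It ranged from 210 to 433 CPM with a median of 345 in AL males, and from 476 to 762 CPM with a median of 677 in IF males. The means of 336 ± 63.5 and 651 ± 106 CPM (SD, n = 8 each) gave a log2 fold change of 0.87 ± 0.14 (SE), and again no IF male reached down to the AL males. In females Fmo5 lay between 175 and 324 CPM under AL, with a median of 241, and between 221 and 392 CPM under IF, with a median of 254. These groups overlapped, and the log2 fold change was 0.16 ± 0.16 (SE).

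Fmo1 (ENSMUSG00000040181) ranged from 119 to 172 CPM with a median of 143 in AL males and from 183 to 275 CPM with a median of 237 in IF males. Its means were 148 ± 21.7 and 233 ± 32.5 CPM (SD, n = 8 each), with no overlap and a log2 fold change of 0.56 ± 0.12 (SE). Female levels were higher, from 263 to 373 CPM with a median of 332 under AL and from 290 to 456 CPM with a median of 345 under IF. The female groups overlapped, at a log2 fold change of 0.18 ± 0.11 (SE), and mouse 37 was the highest IF female here as for Fmo2.

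Fmo4 (ENSMUSG00000026692) differed little between the diets in either sex. It ranged from 7.92 to 13.9 CPM with a median of 11.1 in AL males and from 5.60 to 22.7 CPM with a median of 15 in IF males, with a log2 fold change of 0.33 ± 0.21 (SE). In females it ranged from 20.5 to 50.4 CPM with a median of 27.2 under AL and from 22.7 to 35.6 CPM with a median of 26.6 under IF, with a log2 fold change of -0.07 ± 0.15 (SE). The diets overlapped in both sexes. The male diets thus did not overlap for 3 of the 4 members in liver, and the female diets overlapped for all 4. In male liver edgeR's quasi-likelihood test called 44.6% of all genes tested (7234 of 16204) at an adjusted p of 0.05. In female liver that test called 0% of genes, 0 of 15938, while 919 genes had an unadjusted p under 0.05 and the Wald test of DESeq2 called 6. A share of genes called by a test is another measure than a count of members without overlap, here and in the comparisons below. How many of all genes did not overlap was not counted, and nothing is read from these shares about the members.

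**Figure D1:**
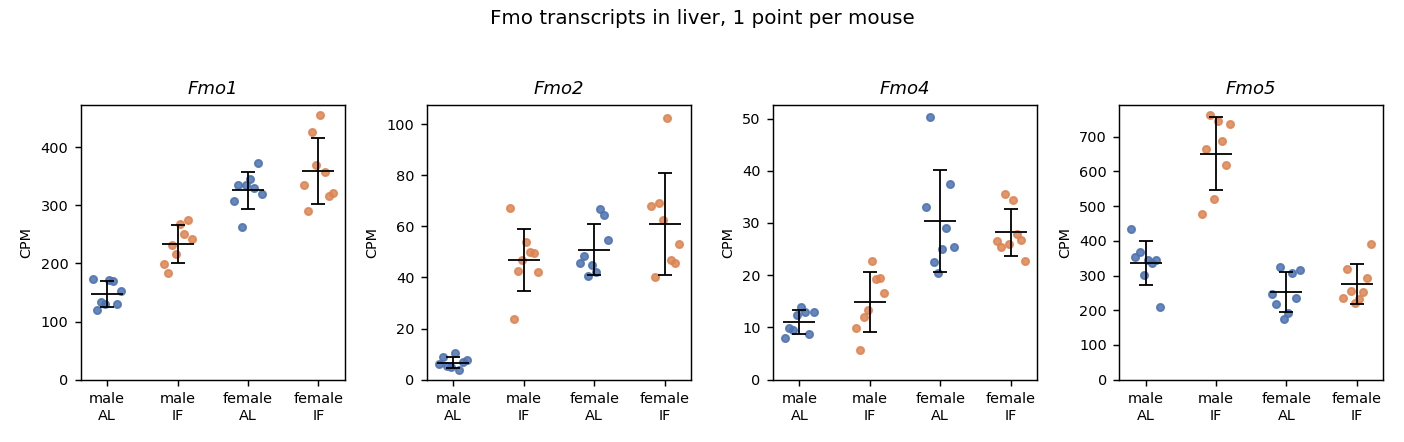
CPM of Fmo1, Fmo2, Fmo4 and Fmo5 in liver by sex and diet, 1 point per mouse, with the group mean and SD as bars. All IF males (23.9 to 67.1 CPM) lay above all AL males (at most 10.3 CPM) in Fmo2.

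The comparison of AL females with AL males shows how the members' levels in liver stood in the sexes without fasting, and its log2 values come from a fit over all 4 groups of liver. The sexes did not overlap for 3 of the 4 members, where edgeR called 20% of all genes tested (3530 of 17658, with 1836 higher and 1694 lower in females), and nothing is read from that share about the members. With plain library totals in place of TMM factors, which shift all genes, 3384 genes were called higher and 1016 lower, and all 4 members kept their direction. Fmo2 was higher in females by a log2 difference of 2.78 ± 0.18 (SE), a ratio of the means of 7.59, and every female lay above every male. Fmo4 was higher by 1.30 ± 0.19 (SE), again with every female above every male. Fmo1 was higher by 0.98 ± 0.11 (SE), and its groups did not overlap either. Fmo5 went the other way, with a difference of -0.56 ± 0.15 (SE) and all 8 females below the male median, although the ranges overlapped. Markers of other cells differed between the same groups. The macrophage sum (Adgre1, Cd68, C1qa and Csf1r) was 63.4 CPM in males and 147 CPM in females, with C1qa (1.44, adjusted p = 0.0102) and Cd68 (0.96, adjusted p = 0.0076) higher in females, as was Syt1 (1.24, adjusted p = 2.69e-06), and Alas2, Aqp4, Cfd and Tek were lower. Their part in the members' difference was not tested.

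Female and male responses to diet were compared by the interaction term of sex with diet, the log2 fold change in females minus that in males. For the members it is given as a description, since the diet values chose them. It was -2.38 ± 0.24 (SE) for Fmo2 and -0.67 ± 0.22 (SE) for Fmo5, that is, smaller fold changes in females. It was -0.35 ± 0.15 (SE) for Fmo1 and -0.36 ± 0.26 (SE) for Fmo4. Over all genes, edgeR called 23.7% for this interaction (4184 of 17658), and nothing is read from that share about the members. Of the marker genes, this interaction was negative for the erythrocyte genes Hbb-bs (-3.59, adjusted p = 0.00116) and Hbb-bt (-3.01, adjusted p = 0.00334), the endothelial Kdr (-1.25, adjusted p = 0.00011), the fibroblast gene Dcn (-0.72, adjusted p = 0.0415), Mbp (-1.38, adjusted p = 0.0307) and the neuron gene Syt1 (-0.72, adjusted p = 0.0383). It was positive for the hepatocyte gene Apoa1 (0.83, adjusted p = 0.00693) and for 1 of the 3 oligodendrocyte genes tested, a list that also holds Mbp. The erythrocyte sum was 576 and 539 CPM in AL and IF females. The part of these cells in the members' values was not tested.

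Under IF the members' levels in the sexes stood in other ratios. Fmo2 in IF females was 1.30 times that in IF males, with overlapping ranges, after 7.59 times under AL. Fmo5 in IF females was 0.422 times that in IF males, with no overlap, after 0.748 times under AL, where the ranges overlapped. Fmo1 was 1.54 times and Fmo4 1.89 times as high in IF females as in IF males. These ratios under IF are given as values, without a test.

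Levels can be set between genes only per length, and CPM per kilobase of the gene length in the table was used for this. In male AL liver the order was Fmo5 (59.2), Fmo1 (23.4), Fmo4 (2.97) and Fmo2 (1.20 CPM per kilobase), and no neighbours in it overlapped between mice. In male IF liver Fmo2 (8.37) stood above Fmo4 (4.01 CPM per kilobase), although their ranges overlapped, below Fmo5 (115) and Fmo1 (36.99). In female AL liver the order was Fmo1 (51.7), Fmo5 (44.3), Fmo2 (9.08) and Fmo4 (8.20 CPM per kilobase), the same as in female IF liver. There Fmo1 overlapped with Fmo5, and Fmo2 with Fmo4, in both diets. The order without dividing by length was the same for all 6 pairs of members in each liver group.

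Among 13419 other genes of liver, those whose log2 CPM followed each member most closely over the 32 liver libraries were sought. These libraries fall into 4 groups of 8, so the correlations mostly describe the pattern of the group means and are given with no p. Fmo2 was followed by Dio3os (Pearson's r = 0.943, Spearman's rho = 0.749), by the clock gene Per1 (r = 0.938, rho = 0.714) and by the cell cycle kinase gene Wee1 (r = 0.936, rho = 0.768). Per1 averaged 5.59 CPM in AL males and 139 CPM in IF males, against 71.9 and 102 CPM in AL and IF females. Fmo1 was followed by Trim24 (r = 0.925, rho = 0.894), by the clock gene Per3 (r = 0.918, rho = 0.863) and by the metallothionein gene Mt1 (r = 0.916, rho = 0.859). Mt1 averaged 8.22, 150, 708 and 730 CPM in male AL, male IF, female AL and female IF liver. Per1 and Per3 are genes of the circadian clock, and the hour at which each mouse was killed is not given, so its part in these patterns was not tested.

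Fmo5 had other neighbours. Closest to it were Gnmt, the glycine N-methyltransferase gene (r = 0.888, rho = 0.862), Etnppl, for the lyase that breaks down phosphoethanolamine (r = 0.888, rho = 0.865), and Coq7, a gene of ubiquinone synthesis (r = 0.882, rho = 0.861). Gnmt averaged 554 CPM in AL males, 1786 CPM in IF males, and 503 and 516 CPM in AL and IF females. For Fmo4 the closest were Mtss1 (r = 0.873, rho = 0.869), Tbc1d24 (r = 0.872, rho = 0.882) and Nipal1 (r = 0.868, rho = 0.805). Among the members themselves, over these libraries of both sexes, Fmo1 followed Fmo4 (r = 0.840) and Fmo2 (r = 0.832). Fmo5 ran against Fmo1 (r = -0.419) and Fmo4 (r = -0.586) there. Within males the ratios of IF to AL were above 1 for Fmo1 (1.58), Fmo4 (1.35) and Fmo5 (1.94). Within females they were 1.10, 0.927 and 1.09.

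Genes around the enzymes' chemistry were read from 4 lists, of FAD supply, NADPH supply, hypotaurine and taurine, and other oxidation of amines, aldehydes and microsomal substrates. In male liver, 1 of 5 genes of FAD supply rose under IF, Slc25a32, the mitochondrial folate and FAD carrier, by a log2 fold change of 0.84 ± 0.15 (SE, adjusted p = 8.72e-05). Of 5 NADPH genes, H6pd, whose product makes NADPH inside the endoplasmic reticulum, rose by 0.64 ± 0.10 (SE, adjusted p = 9.09e-06), from 222 to 370 CPM. The cytosolic Pgd (-0.42, adjusted p = 0.00799) and Idh1 (-0.33, adjusted p = 0.0246) fell. The median log2 fold change was 0.26 for FAD and -0.11 for NADPH supply, beside 0.06 over all genes tested.

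In the taurine list, 2 of 4 genes rose and 1 fell in male liver. Csad, which makes hypotaurine from cysteine sulfinate, rose from 119 to 270 CPM by a log2 fold change of 1.08 ± 0.12 (SE, adjusted p = 1.13e-07). Ado, which makes hypotaurine from cysteamine, rose by 0.42 ± 0.14 (SE, adjusted p = 0.0202). Cdo1, which makes cysteine sulfinate from cysteine, fell from 1236 to 847 CPM (-0.64 ± 0.11, adjusted p = 6.59e-05). The list's median was 0.21. Of the 7 genes of other oxidation 1 rose and 5 fell, with a median of -0.62. Ephx1, the microsomal epoxide hydrolase gene, rose by 0.73 ± 0.13 (SE, adjusted p = 8.28e-05), from 280 to 497 CPM. Those that fell were the aldehyde oxidase genes Aox3 (-0.93 ± 0.16, adjusted p = 5.68e-05) and Aox1 (-0.69 ± 0.20, adjusted p = 0.00811), the cytochrome b5 gene Cyb5a (-0.90 ± 0.14, adjusted p = 8.54e-06), its reductase gene Cyb5r3 (-0.55 ± 0.13, adjusted p = 0.00134) and the monoamine oxidase gene Maob (-0.62 ± 0.14, adjusted p = 0.000886).

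In female liver 0 of the 21 genes of these lists were called by edgeR and 0 by DESeq2, while 2 had an unadjusted p under 0.05, and the list medians lay between -0.02 and 0.07, beside -0.01 over all genes. Between the sexes in AL liver, the aldehyde oxidase genes were lower in females, Aox3 by -1.97 ± 0.16 (SE, adjusted p = 3.82e-12) and Aox1 by -1.65 ± 0.20 (SE, adjusted p = 1.11e-07), and Maob was higher by 0.46 (adjusted p = 0.0372). Of the taurine list, Cdo1 (0.41, adjusted p = 0.0202) and the taurine carrier gene Slc6a6 (0.36, adjusted p = 0.033) were higher and Csad (-0.74, adjusted p = 0.0164) was lower in females. Of FAD supply, the riboflavin kinase gene Rfk (0.61, adjusted p = 0.000732) and Slc25a32 (0.45, adjusted p = 0.0427) were higher, and 0 of 5 NADPH genes passed. The response to diet differed between the sexes for 4 of the 7 oxidation genes, Cyb5a (0.91, adjusted p = 0.00112), Cyb5r3 (0.88, adjusted p = 0.000979), Maob (0.74, adjusted p = 0.0154) and Aox3 (0.62, adjusted p = 0.0397). It also differed for Csad (-1.02, adjusted p = 0.0163), Cdo1 (0.61, adjusted p = 0.0128), Slc25a32 (-0.79, adjusted p = 0.00969) and H6pd (-0.51, adjusted p = 0.0222). For each of these genes the sign was opposite to that of the fold change in males.

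Markers of other cell types also differed between the diets in male liver. The summed CPM of 5 erythrocyte genes (Hba-a1, Hba-a2, Hbb-bs, Hbb-bt and Alas2) averaged 577 ± 193 in AL males (SD, n = 8; 362 to 956) and 2576 ± 2166 in IF males (SD, n = 8; 667 to 6879). Of these genes 3 rose, Hba-a1, the most abundant, Hbb-bs and Hbb-bt. The livers of IF mice 11, 12 and 15, with sums of 667, 702 and 837 CPM, lay within the range of AL males. In those 3 mice Fmo2 stood at 42.6, 46.7 and 49.4 CPM. Fmo5 stood there at 762, 520 and 619 CPM, and Fmo1 at 232, 216 and 275 CPM. For these genes every IF male lay above every AL male, so any choice of IF mice would do so. Nothing is read from these 3 mice about erythrocytes, whose part in the members' levels was not tested.

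The endothelial sum (Pecam1, Cdh5, Tek, Kdr and Cldn5) was 57.7 CPM in AL and 91.8 CPM in IF males, with 2 of 5 genes up, Kdr being the most abundant. The fibroblast sum (Col1a1, Col3a1, Dcn, Pdgfra and Lum) was 88.3 and 130 CPM, with 3 of 5 genes up and Dcn the most abundant. The macrophage sum was 63.4 and 102 CPM, with 1 of 4 genes up. The adipocyte sum (Adipoq, Plin1, Cidec, Lep and Cfd) was 28.04 and 9.49 CPM. This came from Cfd alone, which fell by 4.70 on the log2 scale (adjusted p = 2.38e-10), while Cidec stood at 6.59 and 8.34 CPM and none of the other genes of the list exceeded a mean of 0.195 CPM under either diet. Of the liver's own hepatocyte genes 1 of 5 fell and 0 rose, with sums of 58914 and 51062 CPM in AL and IF males. Of the neuron list 1 of 2 genes tested rose. In the astrocyte and the oligodendrocyte list, 1 of 3 genes tested rose and 1 fell. The part of these cell types in the members' levels was not tested.

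In muscle, Fmo1 and Fmo2 were higher in IF males than in AL males, with ratios of the means of 2.10 and 1.99, and Fmo5 stood at a ratio of 1.33. In females the corresponding ratios were 0.889, 0.792 and 0.919. AL females held more Fmo2 and Fmo5 in muscle than AL males. Fmo1, Fmo4 and Fmo5 lay below their liver levels in every group, and Fmo4 was close to 0 in muscle. Fmo2 in muscle of AL males overlapped with its range in liver of AL males.

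Fmo1 in muscle ranged from 10.4 to 14.4 CPM with a median of 12.7 in AL males and from 19.9 to 47.0 CPM with a median of 23.2 in IF males. The groups did not overlap, and IF mouse 12 stood far above the other IF males. The means were 12.4 ± 1.30 and 26.1 ± 8.77 CPM (SD, n = 8 each), a log2 fold change of 0.99 ± 0.14 (SE). In females Fmo1 lay between 11.1 and 18.01 CPM under AL and between 8.36 and 16.9 CPM under IF, with medians of 14.9 and 13.7 and a log2 fold change of -0.11 ± 0.12 (SE).

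Fmo2 in muscle ranged from 4.66 to 7.71 CPM with a median of 4.99 in AL males and from 7.55 to 14.8 CPM with a median of 11.6 in IF males. Here mouse 12 was the lowest IF male, the only IF male at or below the highest AL male, and mouse 11 the highest. The log2 fold change was 0.93 ± 0.14 (SE). In females Fmo2 lay between 8.39 and 15.3 CPM under AL and between 4.97 and 12.9 CPM under IF, with medians of 12.4 and 9.18 and a log2 fold change of -0.27 ± 0.17 (SE).

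Fmo5 in muscle ranged from 4.72 to 6.93 CPM with a median of 5.59 in AL males and from 6.09 to 11.3 CPM with a median of 7.35 in IF males, mouse 12 again being the highest. In females it lay between 6.42 and 10.5 CPM under AL and between 7.15 and 9.41 CPM under IF. The diets overlapped in both sexes. Fmo4 averaged 0.282 and 0.412 CPM in AL and IF males and 0.265 and 0.202 CPM in AL and IF females, levels at which counting error is large. The male diets did not overlap for 1 of the 4 members in muscle, where 23% of all genes tested were called (3463 of 15025), and the female diets overlapped for all 4. In female muscle 0.00653% of genes were called, 1 of 15308, with 1644 at an unadjusted p under 0.05 and 97 called by DESeq2.

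Between the sexes in AL muscle, again as a description, 1 of the 4 members did not overlap, where edgeR called 38.4% of all genes tested (6273 of 16346). Fmo2 was higher in females by a log2 difference of 0.94 ± 0.16 (SE), a ratio of the means of 2.11, with every female above every male. Fmo5 was higher by 0.49 ± 0.11 (SE), with all 8 females above the male median. Fmo1 differed by 0.12 ± 0.13 (SE) and Fmo4 by -0.20 ± 0.47 (SE). Of the markers, the erythrocyte sum was 391 CPM in males and 228 CPM in females, with 3 of 5 genes lower in females, the macrophage sum was 39.6 and 24.7 CPM, with 2 of 4 genes lower, and 3 of 5 muscle fibre genes, Cldn5 and Rbfox3 were lower. Higher in females were all 3 astrocyte genes tested, Aldoc (2.16, adjusted p = 0.0187), Slc1a3 (1.06, adjusted p = 0.0069) and Aqp4 (0.85, adjusted p = 0.0194), and the fibroblast gene Lum (0.68, adjusted p = 0.000612). The adipocyte sum was 126 CPM in males and 256 CPM in females, with 0 of 5 genes passing. Their part in the members' difference was not tested.

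The interaction of sex and diet in muscle, again as a description of the members, was -1.19 ± 0.23 (SE) for Fmo2 and -1.08 ± 0.18 (SE) for Fmo1, with smaller fold changes in females. It was -0.37 ± 0.15 (SE) for Fmo5 and -0.79 ± 0.66 (SE) for Fmo4. Over all genes tested, edgeR called 14.2% for this interaction (2314 of 16346). Per kilobase the order in muscle was Fmo1, Fmo2, Fmo5 and Fmo4 in all 4 groups. Fmo2 and Fmo5 overlapped in each of them, at 0.998 and 0.997 CPM per kilobase in AL males, and Fmo1 overlapped with Fmo2 in the females.

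**Figure D2:**
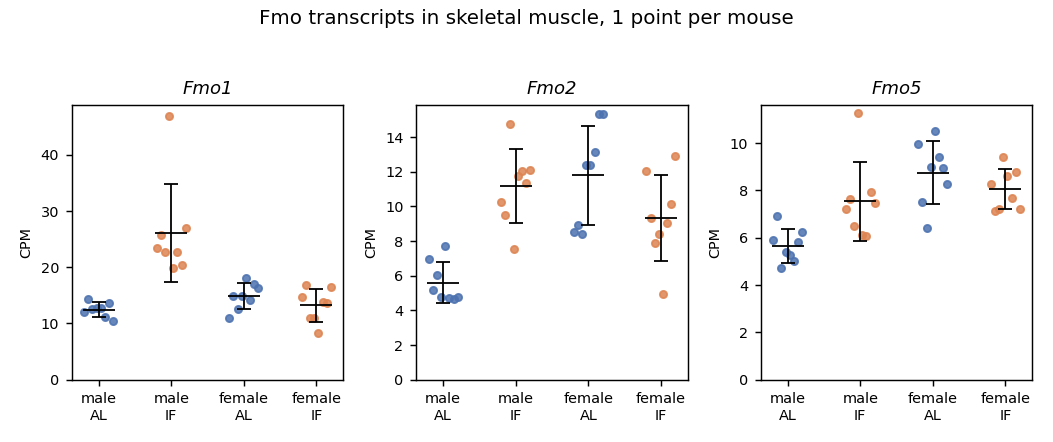
CPM of Fmo1, Fmo2 and Fmo5 in muscle by sex and diet, 1 point per mouse, with the group mean and SD as bars. Fmo1 in IF males (19.9 to 47.0 CPM) lay above every AL male (at most 14.4 CPM), and the female diets overlapped.

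Adipocyte markers differed strongly in the same muscle libraries. Their sum averaged 126 ± 102 CPM in AL males (SD, n = 8; 30.1 to 331) and 820 ± 583 CPM in IF males (SD, n = 8; 112 to 1860). Of the 5 genes 4 rose, Cfd, the most abundant, by a log2 fold change of 2.84 ± 0.58 (SE, adjusted p = 0.00309), Cidec by 2.52 ± 0.64 (SE, adjusted p = 0.0112), Adipoq by 2.25 ± 0.63 (SE, adjusted p = 0.0192) and Plin1 by 2.20 ± 0.69 (SE, adjusted p = 0.0329). Lep stood at -1.25 ± 0.72 (SE, adjusted p = 0.238). In females the sum was 256 CPM under AL and 189 CPM under IF, 0 of 5 genes passed by edgeR's test, and the response differed between the sexes for Cfd (-3.22, adjusted p = 0.0128), Adipoq (-2.81, adjusted p = 0.0208) and Cidec (-2.66, adjusted p = 0.0258).

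The IF males at either end of that sum were mice 11 and 12. IF mouse 11 had the lowest sum of the IF males, 112 CPM, within the range of AL males. It had the highest Fmo2 of the IF males (14.8 CPM), with Fmo1 at 22.8 CPM. Fmo1 of every IF male lay above every AL male, so nothing is read from its level in mouse 11 about adipocytes. IF mouse 12 had the highest sum, 1860 CPM, the highest Fmo1 (47.0 CPM) and the highest Fmo5 (11.3 CPM), and the lowest Fmo2 of the IF males (7.55 CPM). No marker of this list was at 0 in any muscle group. The endothelial sum was 157 and 164 CPM in AL and IF males and 156 and 111 CPM in AL and IF females, and the response differed between the sexes for 3 of its 5 genes, Tek (-0.69, adjusted p = 0.00135), Pecam1 (-0.52, adjusted p = 0.0139) and Cldn5 (-0.88, adjusted p = 0.0413). In males 1 of these 5 fell under IF, Kdr (-0.54, adjusted p = 0.0295). Of the muscle fibre genes 2 of 5 fell in IF males, Mylpf (-0.29, adjusted p = 0.0128) and Ckm (-0.19, adjusted p = 0.0382), with sums of 133258 and 129140 CPM in AL and IF males. Of the fibroblast genes 2 of 5 fell, Col1a1 (-0.58, adjusted p = 0.0256) and Col3a1 (-0.44, adjusted p = 0.0199), with sums of 359 and 309 CPM. The macrophage sum was 39.6 and 32.3 CPM, with 1 of 4 genes down, Csf1r (-0.44, adjusted p = 0.0417). Of the astrocyte list, Slc1a3, for a glutamate carrier, rose (2.15, adjusted p = 0.000993). The response to diet also differed between the sexes for 2 of the 5 muscle fibre genes, with a positive sign. All 5 had a positive interaction, with a median of 0.35. For 1 of the 3 astrocyte genes tested it differed with a negative sign. The part of these cells in the members' levels was not tested.

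**Figure D3:**
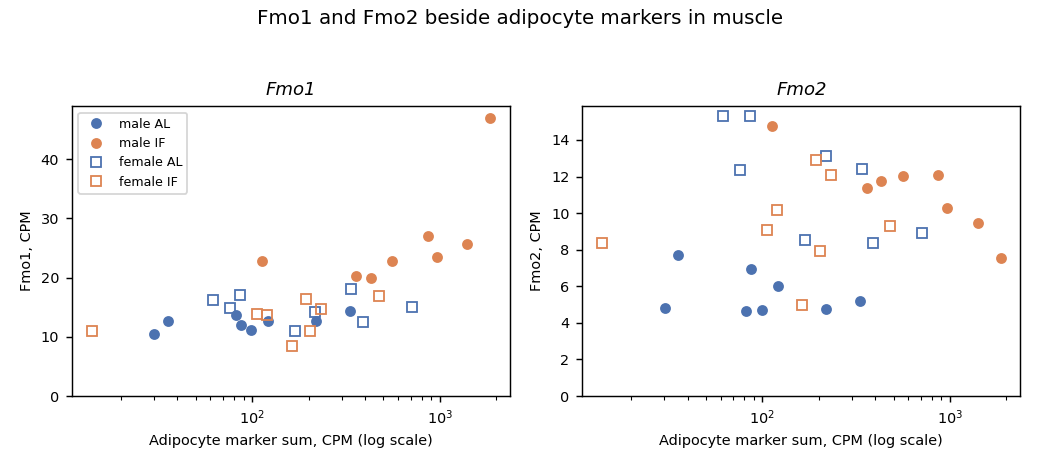
CPM of Fmo1 and Fmo2 in muscle against the summed CPM of the 5 adipocyte genes on a log axis, 1 point per mouse, filled for males and open for females. Mouse 11 (sum 112 CPM) held the highest Fmo2 (14.8 CPM) and mouse 12 (sum 1860 CPM) the highest Fmo1 (47.0 CPM) of the IF males.

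Genes of 3 of the 4 chemistry lists passed the test in male muscle. Of the 5 NADPH genes 4 rose under IF, G6pdx by a log2 fold change of 1.04 ± 0.35 (SE, adjusted p = 0.0427), Idh1 by 0.60 (adjusted p = 0.00402), Me1 by 0.31 (adjusted p = 0.00199) and H6pd by 0.26 (adjusted p = 0.0119). In the taurine list Cdo1 rose by 2.07 ± 0.57 (SE, adjusted p = 0.0174), from 7.67 to 34.2 CPM, and Csad by 0.97 ± 0.23 (SE, adjusted p = 0.00658), from 5.37 to 11.1 CPM. The taurine carrier gene Slc6a6 fell (-0.27, adjusted p = 0.00415). Of 6 oxidation genes tested, Cyb5a (0.62, adjusted p = 0.0132), Aox1 (0.36, adjusted p = 0.0111) and Ephx1 (0.35, adjusted p = 0.00579) rose. The medians were 0.12 for FAD supply, where 0 of 5 passed, 0.31 for NADPH supply, 0.50 for taurine and 0.29 for oxidation, beside 0.01 over all genes. The adipocyte sum differed between the same diets (126 and 820 CPM), and the part of adipocytes in these genes was not tested.

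In female muscle 0 of the 20 list genes tested were called by edgeR and 0 by DESeq2, with 3 at an unadjusted p under 0.05. The response to diet differed between the sexes for Cdo1 (-2.54, adjusted p = 0.0209), Csad (-1.30, adjusted p = 0.000802), Idh1 (-0.55, adjusted p = 0.0217) and the FAD synthase gene Flad1 (0.29, adjusted p = 0.00991). Between the sexes in AL muscle, Idh1 was higher in females by 1 ± 0.12 (SE, adjusted p = 4.92e-08) and H6pd lower (-0.75 ± 0.09, adjusted p = 4.71e-08). Rfk was higher (0.24, adjusted p = 0.00511) and Flad1 lower (-0.21, adjusted p = 0.00243), 0 of 4 taurine genes passed, and of the oxidation list Maoa (0.42, adjusted p = 0.000823), Ephx1 (0.41, adjusted p = 0.000282) and Maob (0.38, adjusted p = 0.00773) were higher and Cyb5r3 (-0.23, adjusted p = 0.0241) was lower.

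In cortex all members were low. Fmo1 averaged 7.19 ± 1.15 CPM in AL males (SD, n = 7), 6.19 ± 0.704 in IF males, 6.40 ± 1.22 in AL females and 7.62 ± 2.94 in IF females (SD, n = 8 each). Fmo2 ranged from 0.558 to 2.25 CPM with a median of 1.06 in AL males and from 1.84 to 3.89 CPM with a median of 2.42 in IF males. The ratio of its means was 2.09, the ranges overlapped, and IF mouse 16 was the highest. In females Fmo2 ranged from 1.38 to 2.75 CPM with a median of 1.96 under AL and from 1.38 to 3.73 CPM with a median of 2.36 under IF. Fmo5 averaged between 3.03 CPM in AL males and 3.47 CPM in IF females. Fmo4 had 27, 20, 25 and 29 counts over all libraries of the male AL, male IF, female AL and female IF groups, and some libraries held none of it.

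No member's diets failed to overlap in cortex in either sex. There, 7.21% of all genes tested were called in males (1332 of 18462) and 0.0109% in females (2 of 18403), where 2069 had an unadjusted p under 0.05 and DESeq2 called 68. Fmo4 did not pass the filter on low counts. Between the sexes in AL mice all 4 members overlapped, where edgeR called 12.6% of all genes tested (2472 of 19547). As a description, Fmo2 stood at a log2 difference of 0.75 ± 0.24 (SE) in females against males, with all 8 females above the male median. It was 0.48 with the library of AL mouse 1, whose sex genes go against its label, counted as male, and 0.67 without mice 2 and 10. In the same comparison the oligodendrocyte genes Mag (0.68, adjusted p = 0.000141), Mog (0.61, adjusted p = 0.000493) and Mbp (0.42, adjusted p = 0.0265) were higher and the endothelial gene Cldn5 (-0.33, adjusted p = 0.044) was lower in females, and their part in the difference was not tested.

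As a description, the interaction of sex and diet in cortex was -0.69 ± 0.32 (SE) for Fmo2, with bounds of -1.33 and -0.04 at 2 SE, and -0.41 with the library of AL mouse 1 counted as male. It was 0.45 ± 0.23 (SE) for Fmo1, with bounds of -0.02 and 0.92, and -0.02 ± 0.18 (SE) for Fmo5, with bounds of -0.38 and 0.34. Over all genes tested, edgeR called 2.03% for this interaction (397 of 19547). The order per kilobase was Fmo1, Fmo5, Fmo2 and Fmo4 in all 4 groups of cortex. Fmo5 and Fmo2 overlapped in 3 of them, and Fmo1 and Fmo5 in IF females.

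Other cells differed in male cortex too. Of the myelin genes of oligodendrocytes, Mbp (0.59, adjusted p = 0.0091), Mog (0.53, adjusted p = 0.00194) and Mag (0.37, adjusted p = 0.0269) rose under IF. Their response differed between the sexes, for Mbp by -0.73 (adjusted p = 0.0261), Mog by -0.83 (adjusted p = 0.00703) and Mag by -0.66 (adjusted p = 0.0174). The endothelial sum was 155 and 121 CPM, with Cldn5 down (-0.43, adjusted p = 0.0252). Of 4 astrocyte genes 1 fell in IF males, and the astrocyte sum was 1579 and 1528 CPM in AL and IF males. The response differed between the sexes for 1 of these 4 genes, with a positive sign. The choroid plexus sum (Kcnj13, Folr1, Clic6 and Ttr) ranged from 5.16 to 3434 CPM between the male libraries used. Among the chemistry lists, H6pd (0.50, adjusted p = 0.0163) and Cyb5r3 (0.21, adjusted p = 0.0414) rose and Idh1 (-0.22, adjusted p = 0.0456) fell in male cortex, and in female cortex 0 of the 21 list genes were called by edgeR and 1 by DESeq2, with 3 at an unadjusted p under 0.05. For the interaction in cortex the count was 0 of 21 by both tools, with 6 at an unadjusted p under 0.05 by edgeR.

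On the genome (GRCm39, positions of the count table) 3 of the members lie side by side on the minus strand of chromosome 1, Fmo4 at chr1:162620757-162641541, Fmo1 at chr1:162657130-162694179 and Fmo2 at chr1:162701886-162726295. Fmo5 lies apart at chr3:97536120-97562598 on the plus strand. The 3 neighbours were all higher in AL female than in AL male liver, and Fmo5 was lower. The annotation gives 32 transcripts for Fmo1, 10 for Fmo2, 6 for Fmo4 and 10 for Fmo5. Of all 50-base stretches of their transcripts, Fmo1 shares 598 of 10792 and Fmo5 34 of 6812 with other genes, none of them an Fmo gene, and Fmo2 and Fmo4 share none. An exon of the long noncoding gene Gm64400 lies on the opposite strand within Fmo5. The labels describe a directional library, and the strand setting of the count is not given, so reads of Gm64400 and Fmo5 cannot be told apart there.

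The bases before the starts of Fmo1 and Fmo2 are shown because these neighbours, on the same strand, stood at different ratios of IF to AL in male liver. Each window holds the 250 bases before the start of the gene in the count table, read from GRCm39 on the minus strand, chr1:162694180-162694429 for Fmo1 and chr1:162726296-162726545 for Fmo2. Both strands were searched for CACGTG, TTATGTAA, TTCNNNGAA, ACANNNTGT, the TATA box letters TATAAA and the box letters CCAAT, and capitals mark a match.
Fmo1: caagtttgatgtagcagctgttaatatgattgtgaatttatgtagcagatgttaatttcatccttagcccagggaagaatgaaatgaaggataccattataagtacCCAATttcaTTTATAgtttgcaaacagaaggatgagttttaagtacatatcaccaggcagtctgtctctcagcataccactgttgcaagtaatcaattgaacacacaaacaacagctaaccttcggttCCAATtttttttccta
Fmo2: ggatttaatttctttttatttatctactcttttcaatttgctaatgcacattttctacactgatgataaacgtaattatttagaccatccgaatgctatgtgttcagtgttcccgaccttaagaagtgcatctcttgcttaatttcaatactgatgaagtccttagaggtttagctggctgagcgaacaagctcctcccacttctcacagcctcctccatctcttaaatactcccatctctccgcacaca
The Fmo1 window holds CCAAT 2 times, ending 140 and 12 bases before the start, and TATAAA on the other strand, ending 130 bases before it, and 6 of its bases lie in an annotated Fmo1 exon. The Fmo2 window holds none of the 6 motifs. Of 21906 such windows of protein-coding genes, 36.2% held CCAAT, 11.6% held TATAAA, 7.21% held TTCNNNGAA, 6.52% held CACGTG, 5.13% held ACANNNTGT and 0.813% held TTATGTAA. A match is a run of letters, and no binding was measured. The annotation gives 23 start sites for Fmo1 and 7 for Fmo2. Each window lies before the start of the gene alone, and which starts the liver used was not measured.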

How the data were processed

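Reads were mapped by the authors to GRCm39 (Hisat2) and assigned to genes (featureCounts), and the deposited table gives raw counts with no normalization. CPM were taken from the plain library total. Members and lists were chosen with earlier results of these data known. In R 4.3.3, edgeR 4.0.16 was run on genes that passed its expression filter (minimum count 10, minimum total count 15), with TMM factors and robust quasi-likelihood dispersions. Diets were compared within each tissue and sex, and the sex difference in AL and the interaction over all 4 groups of a tissue. Adjusted p-values follow Benjamini and Hochberg over all genes tested, with 0.05 as the threshold, all tests being two-sided. Errors of log2 values are standard errors. Likeness to a member was Pearson's r of log2 CPM (prior count 2) over liver libraries, among genes with a mean of at least 1 CPM, and the 3 closest genes are named beside all genes of the lists. Alternatives were DESeq2 1.42.0, relative log expression size factors, plain totals, no filter, 1 fit over all 4 groups, a block for the replicate number, and other choices of mice. The cortex library of AL mouse 1 was left out. Depth limits each value through counting error, which the spread between mice includes. Plots were made in Python 3.11.15 with matplotlib 3.10.9.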

Additional observations from a re-analysis of the deposited data

Results flagged for a closer look

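In 4 of 48 sets of values, each 1 member in 1 group of mice, a mouse stood far from the others by Dixon's ratio of its gap to the range, which chance gives in about 1 in 20 sets. The same mouse gave 2 of the 4. In muscle of IF males, mouse 12 stood at 46.98 CPM of Fmo1, with the next at 27.1 CPM, and at 11.28 CPM of Fmo5, with the next at 7.94 CPM. In liver of IF females, mouse 37 stood at 102.57 CPM of Fmo2, with the next at 69.3 CPM. In cortex of IF males, mouse 16 stood at 3.89 CPM of Fmo2, with the next at 2.59 CPM.

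The response to diet differed in size between the sexes in 4 of 11 values, picked out by edgeR's adjusted p for the interaction. These were 2 of 4 members in liver, where 23.7% of all genes tested were called, 2 of 4 in muscle, where 14.2% were, and 0 of 3 in cortex, where 2.03% were. Under at least 1 alternative setting Fmo1 in liver and Fmo5 in muscle passed the threshold as well, so the counts depend on the setting. The members were chosen on the diet values that make up this term, so that p is no test of them and the differences are a description. In liver the log2 difference, females minus males, was -2.38 for Fmo2 and -0.67 for Fmo5. In muscle it was -1.19 for Fmo2 and -1.08 for Fmo1.

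The cortex library labelled as male AL mouse 1, which was left out and put back only as an alternative setting, held Xist at 213.32 CPM.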

How the results depend on the processing

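For the sex differences of members 80 alternatives were computed, all 80 with the same sign as the value given. For their interactions 77 of 80 had the same sign. For the diet differences 151 were computed, 150 with the same sign and all 151 moved by less than 2 SE of the value given. Of 52 means in CPM all 52 moved by less than 1 SD. Fmo2 in the liver interaction ranged from -2.54 to -2.37 and Fmo5 there from -0.83 to -0.63. In the muscle interaction Fmo1 ranged from -1.24 to -0.93 and Fmo2 from -1.33 to -1.18. The exceptions in sign were values of Fmo5 near 0, those of the cortex interaction, from -0.07 to 0.05, and of the diet difference in male cortex, from -0.02 to 0.12. With plain totals the interaction was -0.52 for Fmo1 and -0.54 for Fmo4 in liver and -0.54 for Fmo5 in muscle, the sex difference in muscle was 0.26 for Fmo1 and -0.07 for Fmo4, and the female diet difference was -0.11 for Fmo4 in liver and -0.17 for Fmo1 in muscle.

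Counts of genes called moved by more than 1.5 times as follows. With DESeq2, counts were 6 in liver, 97 in muscle and 68 in cortex for female diets (0, 1 and 2 by edgeR), 2259 for male cortex diets (1332) and 713 for the cortex interaction (397). With 1 fit over 4 groups, they were 38 in female muscle, 4 in female cortex and 2044 in male cortex. With no filter, they were 5 in female muscle and 220 for the cortex interaction. With plain totals the count in female cortex was 0. The replicate numbers do not pair the mice (correlations of same-number mice from -0.26 to 0.46), and with a block for them the counts were 0 in female and 382 in male cortex. With the cortex library of AL mouse 1, 294 genes were called in male cortex, 81 for the cortex interaction and 1326 for the cortex sex difference (2472). Without mice 2 and 10, the counts were 498 in male cortex and 184 for the cortex interaction. The count for the cortex sex difference moved by less than 1.5 times there, to 2010. The members called for the cortex sex difference were 0 in both of these choices, against 1, where 12.6% of all genes tested were called (2472 of 19547), a count that is no test of them, since their AL levels chose them. The causes were not tested.

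Plain totals and the choices without a mouse that stood apart were added after the data were seen. Plain totals moved the median log2 value of all genes in liver from 0.04 to 0.19 for the sex difference and from -0.04 to -0.21 for the interaction, and in muscle from 0.02 to 0.17 and from -0.01 to -0.17. Low counts limit Fmo4 outside liver.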
